A study of Mus musculus with 8 samples.

Results

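The genes described here encode the synaptic vesicle and its release machinery. They were chosen by name, as 39 presynaptic genes whose rows were taken from the count table of the series. No threshold on a measured value entered the rule. The list was nevertheless chosen with earlier results of these data known, so shares of members set beside all tested genes are descriptions. The table listed 37 of them, and Stx1a and Dnm1 were not analysed here. All 37 passed the filter on low counts and are part of the 13707 protein-coding genes tested, of 16397 genes in the table. RNA from whole hippocampi of C57Bl/6J mouse offspring at E15.5 was sequenced in 4 IUGR and 4 sham control samples. IUGR was produced by maternal hypertension: from E12.5 the pregnant dams carried a micro-osmotic pump delivering U-46619, an analog of thromboxane A2 that constricts blood vessels. The dams of sham controls carried a pump with vehicle only, so surgery and pump were common to both groups. The comparison asks whether the hippocampus of embryos in the IUGR group held different amounts of the transcripts that neurons need to release transmitter.

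The names of all 4 IUGR samples begin with T1, and those of the sham samples with S1 or S3. What this prefix stands for is not given in the labels, and if it names a dam or litter, that dam or litter cannot be told apart from the treatment. Nothing in the labels says that the samples of a group came from separate dams, and p values here measure only the spread between these samples. Total counts on genes were between 12919546 and 16672463 in IUGR samples and between 11212632 and 15405748 in sham samples, and the groups overlapped in depth. Of the markers of the labelled tissue, 8 of 8 for hippocampal and pallial neurons and 13 of 13 for neurons in general were present above the count filter, as were markers of subpallial interneurons (7 of 7) and 3 thalamic markers, so presence alone does not identify the tissue. The pallial score overlapped between groups (mean log2 CPM of the list, 6.51 to 7.07 in IUGR and 6.15 to 7.44 in sham samples). The score of choroid plexus, the secretory epithelium beside the hippocampus, did not overlap between groups. The mean log2 CPM of its markers was 0.53 to 4.45 in IUGR and 6.28 to 6.86 in sham samples. Of the 9 that could be tested, 9 were lower at an unadjusted p under 0.05 by edgeR (beside 6.62% of all tested genes). The groups of 7 of these 9 separated downward (beside 5.06%), and those of Enpp2 and Kl overlapped. Xist, the noncoding RNA expressed from the inactive X chromosome, was high in 3 IUGR samples (T1-3, T1-4, T1-5) and 1 sham sample (S1-6). It was low in 1 IUGR sample (T1-1) and 3 sham samples (S1-4, S3-1, S3-4), and the groups were therefore unequal in it.

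A synaptic vesicle is filled with transmitter, tethered at the active zone by scaffold proteins, primed, and fused with the plasma membrane when calcium enters. Fusion is driven by SNARE proteins on the vesicle and on the target membrane, timed by synaptotagmin, and followed by disassembly of the SNARE complex and retrieval of the membrane by endocytosis. At the age studied here the hippocampus is still producing neurons, and most of these transcripts belong to young neurons whose axons are growing and whose synapses are few. In a bulk sample, fewer cells of a type and less RNA per cell cannot be told apart.

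Promoters of 3 members are shown because Lin7a is the member that passed the test below, and because Syn1 and Unc13a were the members whose windows held the longest motif searched. RefSeq held start-site windows on GRCm38.p6 for 31 of the 37 members, 42 windows in all because some genes have several starts, each running from 250 bases before a start to 50 bases after it. Nrxn2, Rims2, Snap25, Syn3, Syt4 and Vamp2 had none in this collection. Motifs were searched on both strands, and capitals mark the cyclic AMP response element TGACGTCA and the left part TTCAGCACC of the RE1 element, the site at which the repressor REST binds many neuronal genes. All sequences are written 5′ to 3′ on the strand of the gene. Of the windows of Lin7a and Syn1 only the 250 bases before the start are printed, and of Unc13a a stretch of 30 bases. The printed bases of Lin7a lie at chr10:107271581-107271830 and chr10:107272144-107272393 on the plus strand, those of Syn1 at chrX:20920919-20921168 on the minus strand, and those of Unc13a at chr8:71671716-71671745 on the minus strand.
Lin7a, first start: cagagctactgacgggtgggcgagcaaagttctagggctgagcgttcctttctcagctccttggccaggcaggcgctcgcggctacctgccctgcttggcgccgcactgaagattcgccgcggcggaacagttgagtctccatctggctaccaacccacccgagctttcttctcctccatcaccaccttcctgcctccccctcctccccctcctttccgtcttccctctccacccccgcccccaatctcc
Lin7a, second start: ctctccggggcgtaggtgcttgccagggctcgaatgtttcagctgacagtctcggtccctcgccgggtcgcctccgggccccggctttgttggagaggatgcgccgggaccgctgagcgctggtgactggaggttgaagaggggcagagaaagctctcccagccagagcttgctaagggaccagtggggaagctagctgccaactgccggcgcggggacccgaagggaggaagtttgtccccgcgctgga
Syn1: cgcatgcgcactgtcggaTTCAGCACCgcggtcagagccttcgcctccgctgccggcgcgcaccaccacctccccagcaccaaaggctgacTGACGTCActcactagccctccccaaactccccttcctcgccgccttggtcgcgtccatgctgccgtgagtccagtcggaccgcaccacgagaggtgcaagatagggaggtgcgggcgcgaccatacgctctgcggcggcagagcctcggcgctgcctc
Unc13a, around the match: ccgcgcccccGGTGCTGAAgcgacatggcc

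The palindrome TGACGTCA was found in 1 of the 42 member windows, that of Syn1, at 159 bases before the start. This is 2.38% of member windows, beside 1.79% of all 32851 RefSeq windows of the same length. The shorter core TGACG, which lies within the palindrome, was in 8 member windows (19%, beside 20.8% of all windows), the first window of Lin7a among them. TTCAGCACC was found in 2 member windows, 232 bases before the start of Syn1 and, on the opposite strand, 23 bases after the start of Unc13a. That is 4.76% of member windows, beside 0.371% of all windows. The right part of RE1, GGACAG, was in 8 member windows (19%, beside 22.2% of all). These matches are letters in a window and say nothing of whether a factor was bound.

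Of the 37 members, 1 passed the test, Lin7a, and 14 had a log2 fold change within 0.25 of 0. A log2 fold change above 0 was found for 30 (81.1%, beside 44.5% of all tested genes). The median log2 fold change of the members was 0.37, beside -0.02 over all tested genes; with the neuron marker score described below as a covariate, 20 members were above 0 and the median was 0.024. The call required a log2 fold change of at least 1 and an adjusted p no higher than 0.05 in edgeR's quasi-likelihood fit, adjusted by Benjamini-Hochberg over the 13707 genes. Lin7a was the only member called higher, 1 of 37 (2.7%), where 0.102% of all tested genes were called higher. No member was called lower, where 1.36% of all tested genes were. In the same edgeR fit no member was lower at an unadjusted p under 0.05, whereas 6.62% of all tested genes were, and DESeq2 and limma-voom also called no member lower. Another 12 members joined Lin7a at an unadjusted p under 0.05, which made 13 of 37 (35.1%) on the higher side, beside 4.46% of all tested genes. These 13 were Snap25, Unc13a, Syt1, Sv2a, Rab3c, Rims1, Rimbp2, Ppfia2, Erc2, Lin7a, Nrxn2, Dnm3 and Synj1. Apart from Lin7a their adjusted p in this edgeR fit was above 0.05, and their values are given below as values. By DESeq2's Wald test 6 members had an adjusted p under 0.05: Lin7a, Syt1, Dnm3, Rab3c (0.0310), Erc2 (0.0472) and Ppfia2 (0.0480). Of these, Rab3c, Erc2 and Ppfia2 stayed below the fold threshold. DESeq2 called 84 of all tested genes higher, where edgeR called 14. Nrxn2 had an edgeR adjusted p of 0.0478 without S1-6. Of the 13, 7 kept an unadjusted p under 0.05 whichever of the 8 samples was left out: Snap25, Syt1, Rab3c, Ppfia2, Erc2, Lin7a and Dnm3.

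**Figure D1:**
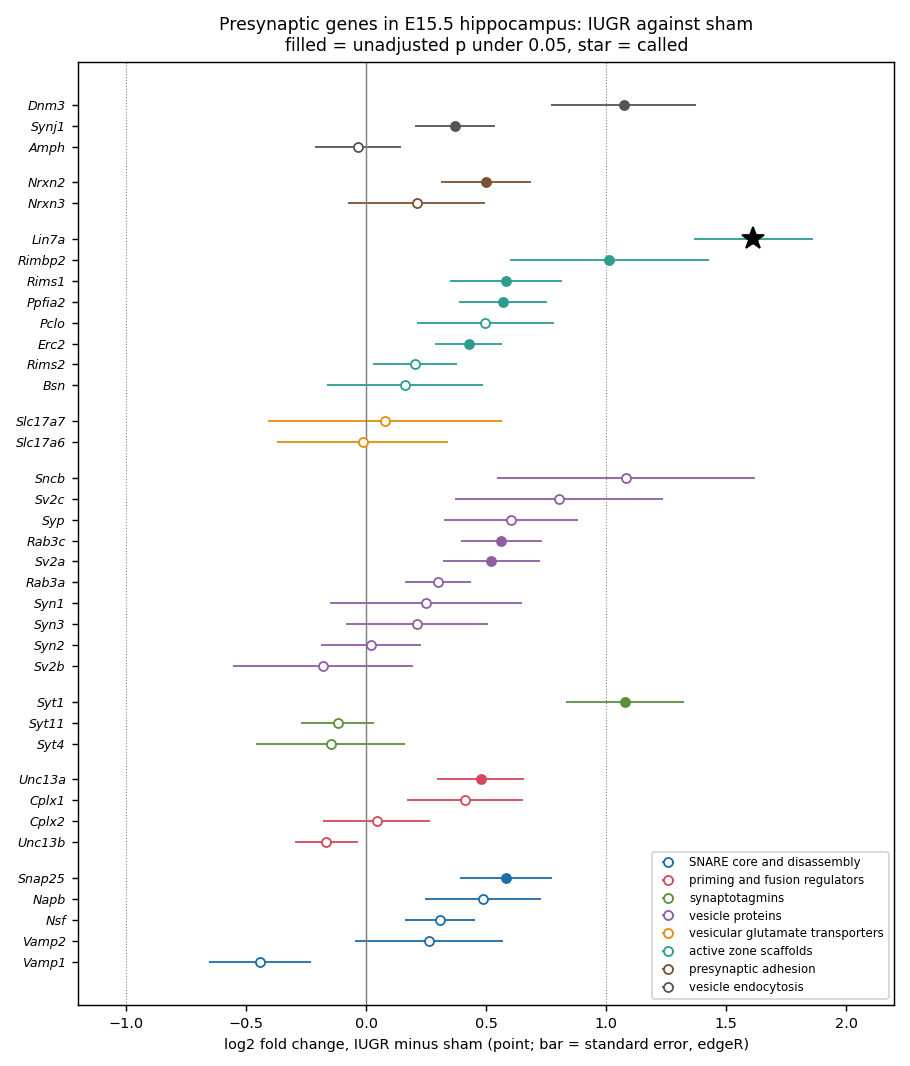
Log2 fold change of each of the 37 members (x axis, IUGR minus sham; point with standard error bar from edgeR), grouped and coloured by role; filled points have an unadjusted p under 0.05, the star marks the gene called, and dotted lines mark a log2 fold change of 1 in either direction. Lin7a lies farthest right at 1.61, 30 members lie right of 0, and Vamp1 lies farthest left at -0.44.

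The proteins of the SNARE core and of its disassembly were Snap25, Vamp1, Vamp2, Nsf and Napb. Of these 5, 4 had a log2 fold change above 0, with a median of 0.31, and 1 had an unadjusted p under 0.05. That gene was Snap25, the plasma membrane SNARE of neurons, which ranged in IUGR samples from 51.8 to 80.7 CPM (counts per 1000000 counts, scaled by TMM library sizes) and in sham samples from 34.3 to 54.3 CPM. Its log2 fold change was 0.58 with a standard error of 0.19 and an adjusted p of 0.218 by edgeR. The groups overlapped through one pair of samples, since T1-4 lay below the highest sham sample, S3-1.

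Napb, the brain form of the SNAP adaptor that recruits the ATPase NSF to spent SNARE complexes, had the highest mean level per kilobase of exon of this group. In sham samples its 8.18 ± 3.19 CPM per kilobase and the 6.94 ± 0.748 of Nsf differed by less than their spread. Napb was at 66.1 (T1-1), 89.9 (T1-3), 72.6 (T1-4) and 94.7 CPM (T1-5) in IUGR samples. In sham samples Napb was at 48.1 (S1-4), 44.7 (S1-6), 91.4 (S3-1) and 46.7 CPM (S3-4). One sham sample, S3-1, was as high as the upper IUGR samples, and the other 3 lay below every IUGR sample. The log2 fold change of Napb was 0.49 (SE 0.24; edgeR adjusted p 0.529). Nsf itself had a log2 fold change of 0.31 (SE 0.15; edgeR adjusted p 0.491), with 3 IUGR samples above the highest sham sample.

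The vesicle SNAREs had log2 fold changes of opposite sign. Vamp1, one of the 2 synaptobrevins listed, had the lowest log2 fold change of all members at -0.44 (SE 0.21; edgeR p 0.0607, adjusted p 0.491). It was at 3.97 (T1-1), 4.86 (T1-3), 4.8 (T1-4) and 4.41 CPM (T1-5) against 6.84 (S1-4), 5.54 (S1-6), 5.33 (S3-1) and 6.84 CPM (S3-4). All 4 IUGR samples lay below all sham samples, at a low level. Vamp1 was the only member whose groups separated downward, 1 of 37 (2.7%), where the groups of 5.06% of all tested genes did so. Vamp2, the main synaptobrevin of the forebrain, ranged from 15 to 38.6 CPM in sham samples and from 18.4 to 40 CPM in IUGR samples, with a log2 fold change of 0.26 (SE 0.31).

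The priming and fusion regulators were the complexins Cplx1 and Cplx2, which clamp and then assist the assembled SNAREs, and Unc13a and Unc13b, the Munc13 proteins that open syntaxin for assembly. Of these 4, 3 lay above 0, with a median log2 fold change of 0.23. Unc13a had a log2 fold change of 0.48 (SE 0.18; edgeR adjusted p 0.316), with a sham mean of 60.2 ± 14.3 CPM and an IUGR mean of 83.7 ± 11.4 CPM (± SD, n = 4 each). Its relative Unc13b was among the 4 lowest members, at 134.0 (T1-1), 119.4 (T1-3), 109.6 (T1-4) and 139.2 CPM (T1-5). In sham samples Unc13b was at 164.0 (S1-4), 122.7 (S1-6), 146.6 (S3-1) and 130.4 CPM (S3-4). The groups overlapped, S1-4 and S3-1 lay above every IUGR sample, and the log2 fold change was -0.17 (SE 0.13; edgeR adjusted p 0.896).

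Cplx2, the more abundant complexin per kilobase, was at 80.9 (T1-1), 132.0 (T1-3), 87.0 (T1-4) and 67.5 CPM (T1-5) in IUGR hippocampi. Sham values were 80.7 (S1-4), 91.0 (S1-6), 68.7 (S3-1) and 116.4 CPM (S3-4). The groups covered nearly the same range, and the log2 fold change was 0.04 (SE 0.22). Cplx1 had a log2 fold change of 0.41 (SE 0.24; edgeR adjusted p 0.686).

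The synaptotagmins were Syt1, Syt4 and Syt11, of which 1 had a log2 fold change above 0. Syt1 is the calcium sensor of fast synchronous release. It was at 83.4 (T1-1), 161.8 (T1-3), 113.8 (T1-4) and 115.7 CPM (T1-5) in IUGR samples and at 59.4 (S1-4), 78.2 (S1-6), 49.4 (S3-1) and 38.2 CPM (S3-4) in sham samples. Every IUGR sample lay above every sham sample, although T1-1 and S1-6 were close. The log2 fold change was 1.08 (SE 0.25), a 2.11-fold higher mean, and edgeR's adjusted p of 0.0629 missed the threshold. Syt1 was called by DESeq2's Wald test (adjusted p 0.00126), by limma-voom (adjusted p 0.0447) and by edgeR without the sham sample S1-6 (adjusted p 0.0408); over all 21 alternatives its adjusted p was between 0.00126 and 1.0.

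Syt4 and Syt11 lack the calcium binding that Syt1 has in its first C2 domain, and they are found on vesicles of several kinds besides synaptic ones. Syt4 was at 51.3 (T1-1), 89.4 (T1-3), 91.3 (T1-4) and 111.3 CPM (T1-5) against 54.0 (S1-4), 80.7 (S1-6), 152.3 (S3-1) and 93.7 CPM (S3-4). The lowest values were in 1 sample of each group, T1-1 and S1-4, and the log2 fold change was -0.15 (SE 0.31; edgeR adjusted p 1.0). Syt11 had the highest level per kilobase of all members in sham samples, 72.4 ± 9.94 CPM per kilobase. It was at 424.9 (T1-1), 302.6 (T1-3), 358.5 (T1-4) and 301.7 CPM (T1-5) against 328.8 (S1-4), 377.4 (S1-6), 353.2 (S3-1) and 448.7 CPM (S3-4), and the groups overlapped throughout, with a log2 fold change of -0.12 (SE 0.15).

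The vesicle proteins proper were 10 genes, of which 9 lay above 0; their median log2 fold change was 0.41, and 2 had an unadjusted p under 0.05 by edgeR. The 2 were Rab3c and Sv2a. Rab3c, a small GTPase of the vesicle surface, ranged in IUGR samples from 130.5 to 208.4 CPM and in sham samples from 93.4 to 131.2 CPM, with a log2 fold change of 0.56 (SE 0.17; edgeR adjusted p 0.166). Sv2a, a glycoprotein of the vesicle membrane, had a log2 fold change of 0.52 (SE 0.20; edgeR adjusted p 0.334). For both genes 3 of the 4 IUGR samples lay above the highest sham sample.

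Rab3a, the best known of the Rab3 proteins and the partner of the RIM scaffolds, had the highest level per kilobase of the vesicle proteins. It was at 68.4 (T1-1), 78.5 (T1-3), 58.2 (T1-4) and 69.3 CPM (T1-5) against 48.2 (S1-4), 55.1 (S1-6), 62.7 (S3-1) and 57.5 CPM (S3-4). T1-4 lay inside the sham range and the other 3 IUGR samples above it, and the log2 fold change was 0.30 (SE 0.14; edgeR adjusted p 0.470). Syp, the integral vesicle protein synaptophysin, had a log2 fold change of 0.60 (SE 0.28; edgeR adjusted p 0.473).

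Sncb, which encodes beta-synuclein, had a log2 fold change of 1.08 on very few reads. Its counts were 8 (T1-1), 64 (T1-3), 13 (T1-4) and 25 (T1-5) against 8 (S1-4), 13 (S1-6), 10 (S3-1) and 13 (S3-4). In CPM these were 0.599, 3.93, 1.10 and 1.90 in IUGR samples and 0.740, 1.13, 0.784 and 0.927 in sham samples, in the same order. The samples T1-3 and T1-5 held the difference, whereas T1-1 was the lowest of all 8 samples. The standard error was 0.54 and edgeR's adjusted p 0.529. With a sample left out the log2 fold change of Sncb was between 0.45 and 1.40. Sv2c was similarly sparse, with 9 to 44 counts per sample and a log2 fold change of 0.80 (SE 0.43).

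The synapsins, which tie vesicles to one another and to actin in the reserve pool, had no unadjusted p under 0.05 by edgeR. Their log2 fold changes were 0.25 (SE 0.40) for Syn1, 0.02 (SE 0.21) for Syn2 and 0.21 (SE 0.30) for Syn3. The values of Syn1 and Syn3 changed with the sham samples used: against the S1 samples alone Syn1 had -0.19 and Syn3 -0.24, against the S3 samples alone 0.89 and 0.87, and without S1-6 Syn1 had 0.88 and Syn3 0.52. Sv2b was the vesicle protein below 0, and it varied widely within both groups. It was at 19.6 (T1-1), 35.0 (T1-3), 10.4 (T1-4) and 23.6 CPM (T1-5) against 15.7 (S1-4), 16.9 (S1-6), 36.9 (S3-1) and 30.9 CPM (S3-4). Both S3 samples lay above both S1 samples, and the log2 fold change was -0.18 (SE 0.37; edgeR adjusted p 1.0). It was 0.44 against the S1 samples alone and -0.59 against the S3 samples alone.

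The vesicular glutamate transporters, which load glutamate into vesicles and mark the excitatory neurons that use it, did not separate the groups. Slc17a6, the transporter of the embryonic forebrain and of subcortical neurons, was at 70.4 (T1-1), 91.1 (T1-3), 43.2 (T1-4) and 71.5 CPM (T1-5). Sham values were 29.6 (S1-4), 53.1 (S1-6), 98.0 (S3-1) and 98.4 CPM (S3-4). Both S3 samples lay above every IUGR sample, and S1-4 lay below every IUGR sample. The log2 fold change was 0.74 against the S1 samples alone and -0.49 against the S3 samples alone. Over all samples it was -0.02 (SE 0.36). Slc17a7, the transporter that predominates in the mature cortex and hippocampus, had a log2 fold change of 0.08 (SE 0.49) at 2.77 to 13 CPM. This value was 0.73 against the S1 samples alone and -0.35 against the S3 samples alone.

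The 8 active zone scaffolds all had a log2 fold change above 0. Their median was 0.53, 5 had an unadjusted p under 0.05 by edgeR (62.5%, beside 4.46% of all tested genes), and Lin7a was called (1 of 8, beside 0.102%). Lin7a (ENSMUSG00000019906; chr10:107271686-107421474, plus strand) encodes a PDZ protein that joins CASK and MINT at the presynaptic membrane and also acts in epithelial polarity. It was at 28.2 (T1-1), 42.8 (T1-3), 33.2 (T1-4) and 43.3 CPM (T1-5) in IUGR samples. In sham samples Lin7a was at 12.3 (S1-4), 14.7 (S1-6), 14.2 (S3-1) and 7.06 CPM (S3-4). The lowest IUGR sample was well above the highest sham sample. Lin7a rose from 12.1 ± 3.5 to 36.9 ± 7.41 CPM (mean ± SD, n = 4 each), with a log2 fold change of 1.61, a standard error of 0.25 and an adjusted p of 0.0155 by edgeR. The call was lost when the sham sample S1-4 was left out (edgeR adjusted p 0.0581), in a fit that called no tested gene higher. It held without any other single sample, with log2 fold changes between 1.42 and 1.76 over the fits with a sample left out. It was also lost against the S1 samples alone (1.45, edgeR adjusted p 0.115) and the S3 samples alone (1.83, edgeR adjusted p 0.100), where 2 sham samples remain. With Xist or the neuron marker score as a covariate, described below, it was lost at log2 fold changes of 1.38 (edgeR adjusted p 0.0890) and 1.16 (edgeR adjusted p 1.0). Of these last 4 fits, 3 called no gene higher, and the fit against the S3 samples called 2.

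Ppfia2, a liprin-alpha that organizes the active zone, had the highest mean level per kilobase of the scaffolds in sham samples. Its 7.65 ± 1.87 CPM per kilobase and the 7.15 ± 0.511 of Erc2 differed by less than their spread. Ppfia2 was at 110.2 (T1-1), 143.2 (T1-3), 106.7 (T1-4) and 135.3 CPM (T1-5) against 67.7 (S1-4), 66.6 (S1-6), 109.2 (S3-1) and 90.2 CPM (S3-4). One sham sample, S3-1, reached just above T1-4, and the log2 fold change was 0.57 (SE 0.18; edgeR adjusted p 0.202). Erc2, a CAST protein that binds RIM and liprin, was, besides Syt1 and Lin7a, the other member whose groups did not overlap upward. Erc2 was at 80.9 (T1-1), 105.3 (T1-3), 80.9 (T1-4) and 106.4 CPM (T1-5) against 68.2 (S1-4), 68.0 (S1-6), 76.7 (S3-1) and 65.2 CPM (S3-4). The gap between T1-4 and S3-1 was narrow, the log2 fold change was 0.43 (SE 0.14), and edgeR's adjusted p was 0.211. These 3 of 37 members (8.11%) stand beside 2.08% of all tested genes whose groups separated upward; with DESeq2 size factors there were 6, Snap25, Rab3c and Ppfia2 being added, beside 2.55% of all tested genes.

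Rims1, the central scaffold that links Rab3, Munc13 and calcium channels, had a log2 fold change of 0.58 (SE 0.23; edgeR adjusted p 0.355). Its relative Rims2 had 0.20 (SE 0.17; edgeR adjusted p 0.934). Rimbp2, which ties RIM to calcium channels, had a log2 fold change of 1.01 (SE 0.41; edgeR adjusted p 0.367) at 15 to 98 counts per sample. The giant scaffolds Bsn and Pclo had log2 fold changes of 0.16 (SE 0.32) and 0.49 (SE 0.29). Against the S1 samples alone Bsn had -0.22 and Pclo 0.14, and against the S3 samples alone 0.69 and 0.99. For both of them S1-6 was the highest sham sample, at 89.8 CPM for Bsn, where the other sham samples reached at most 38.6 CPM.

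**Figure D2:**
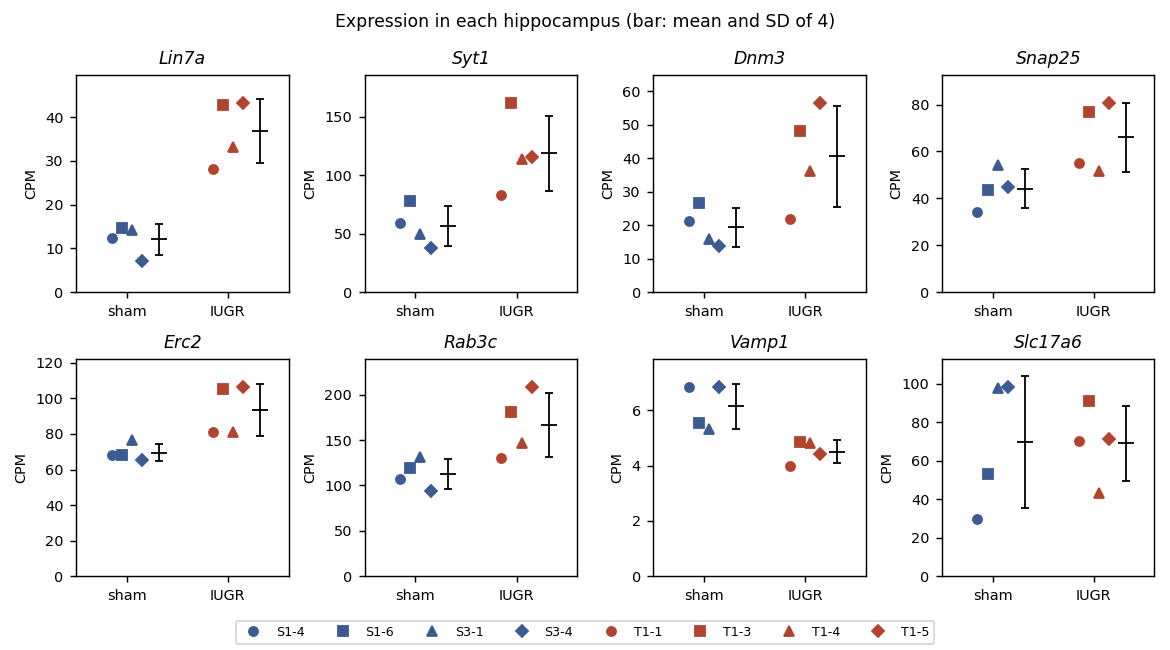
CPM (y axis, linear from 0) of 8 members in each sham (blue) and IUGR (red) hippocampus, with 1 symbol per sample and black bars for the mean and SD of 4. Lin7a, Syt1 and Erc2 show no overlap between groups, Vamp1 separates downward, and the sham values of Slc17a6 fall into S1 samples at 29.6 and 53.1 CPM and S3 samples at 98.0 and 98.4 CPM.

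The presynaptic adhesion genes were the neurexins Nrxn2 and Nrxn3, which bind neuroligins across the synaptic cleft. Nrxn2 had a log2 fold change of 0.50 (SE 0.19; edgeR adjusted p 0.308), and ranged in IUGR samples from 102.0 to 134.1 CPM and in sham samples from 67.2 to 114.5 CPM. Nrxn3 had the higher level per kilobase and was at 169.4 (T1-1), 144.1 (T1-3), 215.0 (T1-4) and 169.4 CPM (T1-5) against 235.1 (S1-4), 177.7 (S1-6), 103.6 (S3-1) and 87.0 CPM (S3-4). Every S1 sample exceeded every S3 sample by a wide margin, and the IUGR samples lay between the extremes. The log2 fold change of Nrxn3 was 0.21 (SE 0.28), made up of -0.24 against S1 samples and 0.90 against S3 samples.

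Of the endocytosis genes, Dnm3 was the fourth highest of all members. It encodes a dynamin of neurons, the GTPase family that pinches vesicles from the membrane. Dnm3 was at 21.7 (T1-1), 48.0 (T1-3), 36.2 (T1-4) and 56.5 CPM (T1-5) against 21.2 (S1-4), 26.7 (S1-6), 15.8 (S3-1) and 13.7 CPM (S3-4). T1-1 lay within the sham range, and the other 3 IUGR samples lay above it. The log2 fold change was 1.07 (SE 0.30) and edgeR's adjusted p was 0.132; DESeq2 called it (adjusted p 0.0144), and over all alternatives its adjusted p was between 0.0144 and 1.0.

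Synj1, the phosphatase synaptojanin that acts in shedding the clathrin coat, had a log2 fold change of 0.37 (SE 0.17; edgeR adjusted p 0.447), with 3 IUGR samples above the highest sham sample. Amph, the membrane-bending protein amphiphysin, had the highest level per kilobase of the group. It was at 54.5 (T1-1), 49.4 (T1-3), 46.6 (T1-4) and 55.0 CPM (T1-5) against 69.5 (S1-4), 38.2 (S1-6), 56.2 (S3-1) and 46.7 CPM (S3-4). The IUGR samples lay inside the sham range, and the log2 fold change was -0.04 (SE 0.18; edgeR adjusted p 1.0).

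The levels of the members within sham samples covered a wide range. Per kilobase of exon in the annotation, Syt11 was followed by Rab3a at 25.1 ± 2.71, Syt4 at 24.4 ± 10.7, Cplx2 at 18.1 ± 4.12 and Slc17a6 at 12.9 ± 6.33 CPM per kilobase. Rab3a, Syt4 and Cplx2 lay within the spread of Syt4 and are not ordered by these samples. Classical synapse markers stood in the middle: Syp was at 9.17 ± 3.07, Syt1 at 6.75 ± 2.03 and Snap25 at 6.5 ± 1.2 CPM per kilobase, and Syt1 and Snap25 differed by less than their spread. At the low end were Vamp1 at 0.604 ± 0.0802, Sncb at 0.417 ± 0.0810, Rimbp2 at 0.231 ± 0.118 and Sv2c at 0.155 ± 0.0917 CPM per kilobase. Rimbp2 and Sv2c also overlapped. In IUGR samples Syt11 was again the highest, at 66.6 ± 11.2 CPM per kilobase.

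Some samples were the highest or the lowest for many members at once, and dependence between members was not tested. T1-3 was the highest of all 8 samples for 15 of the 37 members (40.5%, beside 17.2% of all tested genes) and the lowest for none. T1-3 also had the highest meningeal fibroblast score, 8.57, beside 2.87 to 6.76 in the other IUGR samples and 5.19 to 6.37 in sham samples; 5 of 5 of these markers had a log2 fold change above 0, none at an unadjusted p under 0.05 by edgeR, and their part in the members' values was not tested. T1-5 was the highest for another 8 members (21.6%, beside 10.6% of all tested genes). T1-1 and T1-4 were the highest for 1 each (2.7%, beside 11.2% for T1-1 and 7.61% for T1-4). Among sham samples S1-6 was the highest for 17 members (45.9%, beside 26.2% of all tested genes). S3-4 was the lowest of all samples for 12 members (32.4%, beside 11.7% of all tested genes). The sham samples of both prefixes were separated for about as many members in each direction: 10 were higher in both S1 samples than in both S3 samples (27%, beside 16.5% of all tested genes) and 8 were lower (21.6%, beside 18.6%). The first set held Syt1, Nsf, Syn3, Sv2c, Rims2, Rimbp2, Pclo, Nrxn2, Nrxn3 and Dnm3, and the second held Snap25, Rab3a, Ppfia2, Syt4, Syn2, Sv2b and both glutamate transporters.

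**Figure D3:**
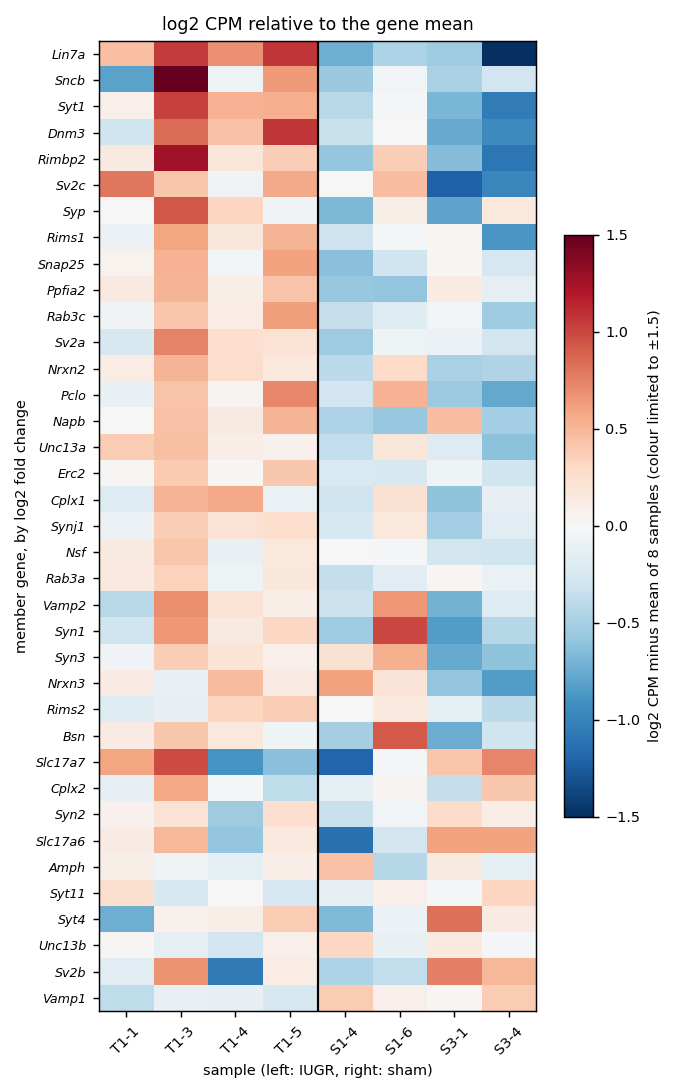
Log2 CPM of the 37 members (rows, ordered by log2 fold change) in each sample (columns, IUGR left and sham right) after subtracting the mean of the 8 samples; red is above and blue below that mean, and the colour scale stops at 1.5 in either direction. The columns of T1-3 and T1-5 are mostly red and those of S3-1 and S3-4 mostly blue in the upper rows, and Syn1 and Bsn are red in S1-6.

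Of 13 general neuron markers, such as Tubb3, Map2 and Dcx, 13 had a log2 fold change above 0 (beside 44.5% of all tested genes), with a median of 0.34. None was called by edgeR, and 7 were higher at an unadjusted p under 0.05 (53.8%, beside 4.46%). Of 8 hippocampal and pallial markers, 7 had a log2 fold change below 0, with a median of -0.29, and 1 was lower at an unadjusted p under 0.05 by edgeR (1 of 8, beside 6.62% of all tested genes). This was Prox1 of dentate granule neurons, at -0.56 (SE 0.23; edgeR adjusted p 0.368). A difference between the lists was not tested. The mean log2 CPM of the 13 general markers was 7.64 (T1-1), 8.08 (T1-3), 8.02 (T1-4) and 7.73 (T1-5), and 7.21 (S1-4), 7.61 (S1-6), 7.43 (S3-1) and 7.25 (S3-4). The groups did not overlap in it, although T1-1 and S1-6 nearly met. The mean log2 CPM of the 37 members was 5.11 (T1-1), 5.61 (T1-3), 5.17 (T1-4) and 5.38 (T1-5), and 4.80 (S1-4), 5.17 (S1-6), 4.90 (S3-1) and 4.83 (S3-4). Here the groups overlapped, since S1-6 exceeded T1-1 and T1-4. Subtracting the neuron score left -2.85 to -2.35 in IUGR and -2.53 to -2.40 in sham samples, with every sham sample inside the IUGR range.

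With the neuron score as a covariate in edgeR, 1 member, Lin7a, kept an unadjusted p under 0.05 on the higher side, where 0.372% of all tested genes had one, and the median log2 fold change of the members was 0.02. The unadjusted p of Lin7a was then 0.0163 by edgeR, and the log2 fold changes of Syt1 and Dnm3 were 0.33 and 0.57. Relative to the neuron score, Lin7a was -2.96 to -2.29 in IUGR and -4.40 to -3.57 in sham samples on the log2 scale, without overlap. Since the groups do not overlap in the score, the score and the group can be only partly told apart in this fit. Markers of non-neural cells also lay mostly above 0: 4 of 5 for endothelium (median log2 fold change 0.59), 6 of 6 for erythroid cells (0.38) and 6 of 6 for microglia (0.30), of which 1, an endothelial marker, had an unadjusted p under 0.05 by edgeR. Their scores overlapped between the groups, at 4.95 to 5.74 in IUGR against 4.64 to 5.33 in sham samples for endothelium, 5.03 to 6.93 against 5.82 to 6.40 for erythroid cells and 2.73 to 3.99 against 2.91 to 3.19 for microglia. The scores of neural progenitors, subpallial interneurons, Cajal-Retzius cells and thalamus overlapped as well, and the part of these lists in the members' values was not tested.

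Choroid plexus markers were the list with the widest difference between groups. With their score as a covariate the median log2 fold change of the members was 0.65, 13 had an unadjusted p under 0.05 by edgeR, 10 of them shared with the 13 above, and Lin7a was called at 2.09 (edgeR adjusted p 0.0282). In that fit 10.2% of all tested genes were higher at an unadjusted p under 0.05, beside 4.46% without the covariate, and 223 were called higher. The groups do not overlap in the choroid plexus score, so this score and the group can be only partly told apart in this fit. The lowest choroid plexus scores were those of T1-4 (0.53) and T1-1 (1.33), beside 4.45 in T1-3 and 4.36 in T1-5. Without T1-1 and T1-4, an alternative chosen after seeing the data, Lin7a and Dnm3 were called and 17 members had an unadjusted p under 0.05 on the higher side by edgeR. Over all tested genes that fit put 8.35% there and called 99 higher, where the fit with all samples called 14.

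**Figure D4:**
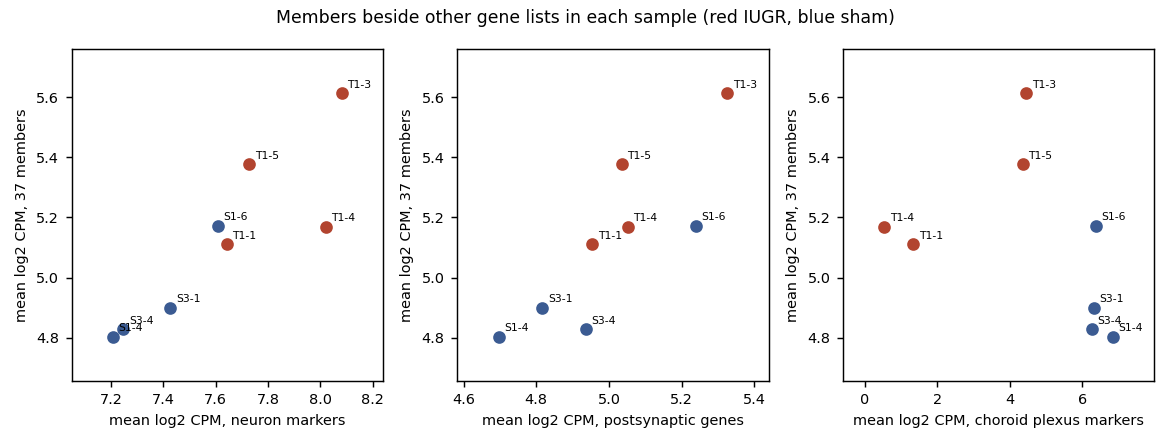
Mean log2 CPM of the 37 members (y axis) against the mean log2 CPM of 13 neuron markers, of 23 postsynaptic genes and of choroid plexus markers (x axes), with 1 point per sample (red IUGR, blue sham). The 4 IUGR samples lie between 5.11 and 5.61 and the 4 sham samples between 4.80 and 5.17 on the y axis, and the choroid plexus panel separates the groups on the x axis.

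Because Xist was unequal between the groups, the members were also compared among samples alike in it. With the log2 CPM of Xist as a covariate, 4 members kept an unadjusted p under 0.05 by edgeR (Ppfia2, Dnm3, Syt1 and Lin7a), beside 1.65% of all tested genes on the higher side, and the median log2 fold change was 0.25. No gene of all those tested was called in that fit, members included. Syt1 then had 0.74 with an edgeR adjusted p of 0.258. Among the samples low in Xist, 16 members were higher in T1-1 than in each of the 3 sham samples (43.2%, beside 24.9% of all tested genes). Among those high in Xist, 14 members were higher in each of the 3 IUGR samples than in S1-6 (37.8%, beside 21.2%). Both held for 8 members (21.6%, beside 4.66% of all tested genes): Snap25, Syt1, Rab3a, Ppfia2, Erc2, Lin7a, Dnm3 and Synj1. Each of these comparisons rests on 1 sample of a group, T1-1 or S1-6, and uses the same samples as the fits above.

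**Figure D5:**
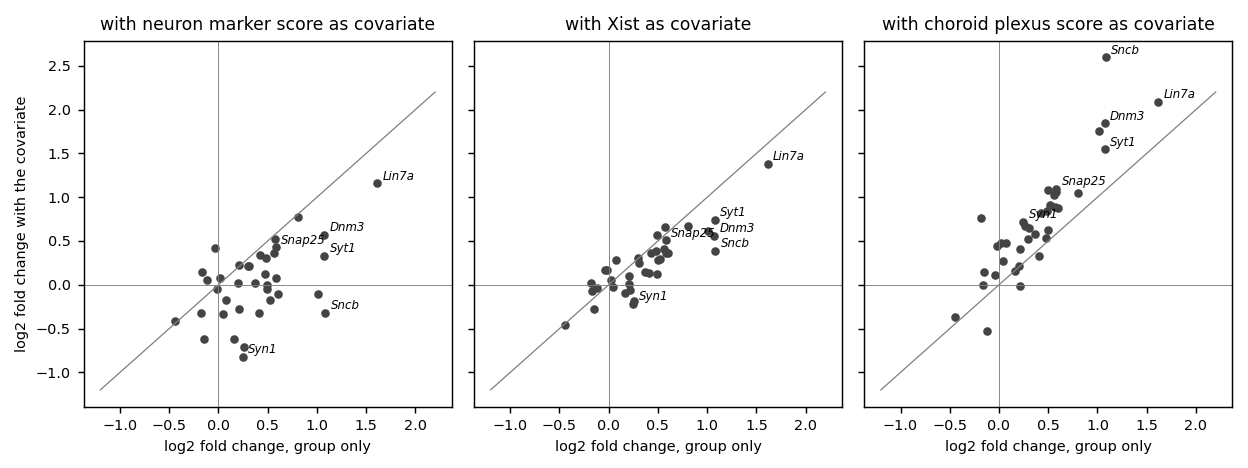
Log2 fold change of each member (1 point per gene) in the edgeR fit with group only (x axis) against the fit with a covariate added (y axis), for the neuron marker score, Xist and the choroid plexus score; the diagonal marks equal values. Lin7a, at 1.61 on the x axis, lies at 1.16, 1.38 and 2.09, and most points lie below the diagonal in the first panel and above it in the third.

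Related members were compared as ratios within a sample, which do not depend on the scaling of the libraries. Of 18 pairs listed, 17 could be compared, by exact two-sided permutation tests with 4 samples against 4, for which the smallest possible p is 0.0286. None reached a p under 0.05. The smallest p was 0.0571 (exact permutation test, adjusted p 0.324 over the 17 pairs) for Syt1 to Syt11, Syt1 to Syt4 and Unc13a to Unc13b. The log2 ratio of Syt1 to Syt11 was -1.57 ± 0.603 in IUGR and -2.78 ± 0.564 in sham samples (SD, n = 4 each), a difference of 1.21. The log2 ratio of Unc13a to Unc13b was -0.59 ± 0.252 and -1.25 ± 0.437, a difference of 0.66. The ratio of Slc17a6 to Slc17a7 differed by 0.07 on the log2 scale, from 3.24 ± 0.196 in sham to 3.31 ± 0.614 in IUGR samples.

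The rest of the presynaptic pathway was followed in a list of 63 further genes, of which 61 passed the count filter. Of these, 46 had a log2 fold change above 0, the median was 0.22, and no gene was called by edgeR or limma-voom, while DESeq2 called 1, Rims4. At an unadjusted p under 0.05, 12 were higher (19.7%, beside 4.46% of all tested genes) and 2 were lower (3.28%, beside 6.62%), and the groups of 3 separated upward (4.92%, beside 2.08%). The largest log2 fold changes on the higher side were 1.19 for Rims4 (SE 0.31; edgeR adjusted p 0.100), a short RIM protein, and 1.11 for Unc13c (SE 0.50; edgeR adjusted p 0.444), another Munc13. On the lower side stood Slc17a8, the third vesicular glutamate transporter, at -1.84 (SE 0.58; edgeR adjusted p 0.190) and Syt10 at -0.90 (SE 0.43; edgeR adjusted p 0.499). Slc17a8 averaged 0.415 ± 0.355 CPM in IUGR samples and 1.51 ± 0.628 CPM in sham samples, which is a level of few reads.

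On the postsynaptic side, the median log2 fold change of 23 scaffold and adhesion genes was 0.04, with 15 above 0 and 2 at an unadjusted p under 0.05 on the higher side (8.7%, beside 4.46% of all tested genes). None was called by edgeR, DESeq2 or limma-voom. The 2 were Dlg2, a scaffold of glutamate receptors, at 0.75 (SE 0.20; edgeR adjusted p 0.103) and Lrrtm4, a postsynaptic partner of presynaptic adhesion proteins, at 0.77 (SE 0.32; edgeR adjusted p 0.369). The other 2 of the 4 largest were Camk2a at 0.77 (SE 0.45) and Dlg4 at 0.39 (SE 0.21). The postsynaptic score was 4.95 to 5.33 in IUGR and 4.70 to 5.24 in sham samples and overlapped between the groups; a difference between these genes and the members was not tested.

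Of the members, 7 share exon bases with a gene on the opposite strand: Ppfia2 (2670 bases), Syn3 (1733 bases, with Timp3), Unc13a (495 bases, with Colgalt1), Nrxn2 (207 bases), Syn2 (90 bases, with Timp4), Rab3a (29 bases) and Syn1 (9 bases). The libraries kept the strand, but the strand setting of the counting is not given in the sources used here, and reads in these bases may be counted to either gene. Lin7a, Syt1, Dnm3, Erc2 and Vamp1 share none.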

How the data were processed

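Libraries of ribosomal RNA-depleted total RNA were sequenced from 4 IUGR and 4 sham hippocampi at E15.5. The authors deposited whole-number read counts for each gene and sample, which are not normalized. The submitters' processing notes name Novoalign 2.8 and mm10 (GRCm38). The counting program, annotation and strand setting are not given in the sources used here. No column was left unmapped to a sample.

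Identifiers were matched to GENCODE M21 (16124 of 16397). The study's count range was applied to the mean count (at least 10, under 50000), which left 13707 protein-coding genes. Counts were compared with edgeR 4.0.16 in R 4.3.3 (TMM, quasi-likelihood test, group as the only term) with Benjamini-Hochberg adjustment over all of these genes, and log2 CPM used a prior count of 2. Paralog ratios were compared by exact permutation tests with scipy 1.17.1. Precision is limited by 4 samples per group.

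The members and lists were chosen with earlier results of these data known. Values in every sample are given for the member called, the 4 highest and 4 lowest log2 fold changes and the member with the highest level per kilobase in sham samples in each role. Further genes named are the 4 with the largest log2 fold changes of each pathway list and markers set beside a result. Erc2 was added after its values were seen. The alternatives were DESeq2 size factors, upper-quartile factors, the Wald test of DESeq2 1.42.0, limma-voom (limma 3.58.1), no low-count filter, a mean count of at least 50, all biotypes, each sample left out, the sham samples of either prefix alone, covariates for Xist, choroid plexus and neuron scores, and, added after seeing the data, the fit without T1-1 and T1-4. Promoter sequences are from RefSeq (GRCm38.p6), and genome coordinates are on GRCm38.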

Additional observations from a re-analysis of the deposited data

Results flagged for a closer look

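For each member and group, the sample farthest from the other 3 was compared with Dixon's critical value (95%) for 4 samples. Of 74 groups checked, 5 held a sample past it, and chance alone gives about 5% of groups. Sham sample S1-6 stood above the other sham samples for 3 of them: Syn1 was at 18.3 CPM in S1-6 and 5.02 to 6.70 CPM in the others, Bsn was at 89.8 CPM against 28.2 to 38.6 CPM, and Nrxn2 was at 114.5 CPM against 67.2 to 71.5 CPM. Sham sample S3-1 stood above the others for Napb, at 91.4 CPM against 44.7 to 48.1 CPM. IUGR sample T1-3 stood above the others for Rimbp2, at 6.02 CPM against 2.70 to 3.19 CPM.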

How the results depend on the processing

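The number of members called higher, 1 by edgeR, was 3 with DESeq2's Wald test (Lin7a, Syt1 and Dnm3), 2 with limma-voom (Lin7a and Syt1), 2 without T1-1 and T1-4, and 0 against the S1 samples alone, against the S3 samples alone, with the Xist covariate and with the neuron score covariate; over all genes these 4 fits called 0, 2, 0 and 0 higher and 0 lower. With 1 sample left out it ranged from 0 (without S1-4) to 2 (without S1-6). Over all genes these fits called 0 and 27 higher, where the fit with all samples called 14. The number with an unadjusted p under 0.05 on the higher side, 13 (beside 4.46% of all genes), was 8 against the S1 samples alone (2.47% of all genes in that fit), 17 against the S3 samples alone (4.66%), 4 with the Xist covariate (1.65%) and 1 with the neuron score covariate (0.372%), and ranged from 8 (without T1-3, 3.28%, or S3-4, 2.74%) to 21 (without S1-6, 6.17%). On the lower side it was 0, and 0 to 1 with a sample left out (1 without S3-1). The median log2 fold change of the members, 0.37, was 0.32 against the S1 samples alone, 0.55 against the S3 samples alone, 0.65 with the choroid plexus covariate and 0.024 with the neuron score covariate. Members whose groups separated upward were 3, and 6 with DESeq2 size factors. The causes of these changes were not tested; the fits with 1 prefix use 2 sham samples. Of the 30 members above 0, 15 stayed above 0 in each alternative that tested them (21, or 20 for Sv2c, which falls under a mean count of 50), among them Lin7a, Syt1, Dnm3, Snap25, Erc2 and Rab3c. Members that were not called changed sign in 70 comparisons of a gene with an alternative, spread over 21 genes, and Lin7a did not change sign in any. Over all 13707 genes edgeR called 14 higher and 186 lower, DESeq2 called 84 and 341, and limma-voom 24 and 304. At a mean count of at least 50, 34 of 37 members were tested and 3 genes were called higher and 70 lower. Sncb, Sv2c, Rimbp2 and Vamp1 rest on fewer than 100 counts in every sample. The standard error of the log2 fold change was 0.21 for Vamp1 and 0.41 to 0.54 for the others. No paired analysis was possible because the replicate numbers of the groups were given in accession order and pair no samples.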

Other observations

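The genes in these paragraphs were chosen after their values were seen. The partners of Lin7a at the presynaptic membrane are the scaffold Cask and the MINT adaptors Apba1 and Apba2, and Lin7c is its close relative. Lin7c was far more abundant than Lin7a, at 410.4 ± 43.9 CPM in IUGR samples and 425.6 ± 79.2 CPM in sham samples (mean ± SD, n = 4 each), and its log2 fold change was -0.05 (SE 0.15; edgeR adjusted p 1.0). Cask had a log2 fold change of 0.31 (SE 0.14; edgeR adjusted p 0.468), Apba1 one of 0.46 (SE 0.20; edgeR adjusted p 0.416) and Apba2 one of -0.08 (SE 0.13; edgeR adjusted p 1.0). None of these 4 was called, and a difference between Lin7a and Lin7c was not tested.

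Other presynaptic genes with an unadjusted p under 0.05 on the higher side, besides Rims4 and Unc13c, had log2 fold changes between 0.36 and 0.82 and were not called by edgeR. The highest was Doc2a, a calcium sensor of spontaneous and asynchronous release, at 5.95 ± 0.975 CPM in IUGR samples against 3.37 ± 1.06 CPM in sham samples (0.82, SE 0.27; edgeR adjusted p 0.217). Rims3, a short RIM protein, had 0.63 (SE 0.21; edgeR adjusted p 0.231), and the small vesicle proteins Syngr1 and Syngr3 had 0.50 and 0.53. Syt9 was the other gene, besides Slc17a8, with an unadjusted p under 0.05 on the lower side, at 10.5 ± 2.10 CPM against 17.3 ± 3.96 CPM (-0.71, SE 0.23; edgeR adjusted p 0.196). The 13 neuron markers had log2 fold changes from 0.17 for Elavl3 to 1.24 for Nefl. None of the 13 neuron markers was called by edgeR or limma-voom, and DESeq2 called 1, Nefl.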
